A study of Mus musculus with 12 samples.

Results

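The genes described here encode 10 chemokine ligands, chosen by symbol: Cxcl1, Cxcl2, Cxcl5, Cxcl10, Cxcl12, Ccl2, Ccl3, Ccl4, Ccl7 and Cx3cl1. All 10 had estimated counts, of 25553 gene symbols with counts and 33615 symbols in the table. RNA from frozen mouse heart was sequenced in bulk in 12 libraries, 4 in each of 3 groups. Hearts of the I/R + ML264 group had 30 min of ischemia and 2 h of reperfusion and received ML264, a small-molecule inhibitor used here against the Krüppel-like transcription factor KLF5. Hearts of the I/R group had the same ischemia and reperfusion without the inhibitor, and hearts of the Sham group had a sham operation with a time label of 2 h. The labels used here give no strain, age or sex of the mice, no dose or timing of ML264, and no statement that each library came from its own animal, so the p-values reflect only how these libraries vary. The region of the heart that was sampled is not given either.

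Chemokines are small proteins that guide leukocytes by binding G protein-coupled receptors, and they are grouped as CXC, CC or CX3C by the spacing of their first cysteines. In injured heart muscle, Cxcl1, Cxcl2 and Cxcl5 attract neutrophils through Cxcr2, while Ccl2 and Ccl7 draw monocytes through Ccr2. Ccl3 binds Ccr1, and Ccl3 and Ccl4 attract macrophages and T cells. Cxcl10 acts on T cells and NK cells through Cxcr3, Cxcl12 on many cell types through Cxcr4 and the scavenging receptor Ackr3, and Cx3cl1 is a membrane-anchored ligand of Cx3cr1 on monocytes and macrophages. Transcription of the inflammatory members is known to be driven by NF-kB at kappaB sites, and several of their mRNAs are short-lived because of AU-rich elements in the 3' UTR.

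The promoter stretches below are shown because the induced neutrophil attractants Cxcl1 and Cxcl2 can be set beside Cxcl12, whose level varied least, and beside the interferon-responsive Cxcl10. RefSeq promoter windows (GRCm38.p6) matched 6 of the 10 genes: Cxcl1, Cxcl2, Cxcl10, Cxcl12, Ccl3 and Cx3cl1. Each stretch is read 5' to 3' on the coding strand and ends before the GENCODE M21 gene begins. Capitals mark matches to the kappaB consensus, the AP-1 motif TGANTCA and the consensus of the interferon-stimulated response element.
Cxcl1 (chr5:90891125-90891240, plus strand): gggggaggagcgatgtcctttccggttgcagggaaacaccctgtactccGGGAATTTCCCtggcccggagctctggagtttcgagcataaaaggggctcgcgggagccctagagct
Cxcl2 (chr5:90903779-90903870, plus strand): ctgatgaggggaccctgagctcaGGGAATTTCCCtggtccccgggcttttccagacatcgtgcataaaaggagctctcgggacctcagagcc
Cxcl10 (chr5:92348890-92349109, minus strand): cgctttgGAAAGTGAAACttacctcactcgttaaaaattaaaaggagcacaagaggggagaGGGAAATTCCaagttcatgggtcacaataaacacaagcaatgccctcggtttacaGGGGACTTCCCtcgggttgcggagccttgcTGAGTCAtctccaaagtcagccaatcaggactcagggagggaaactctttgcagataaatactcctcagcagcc
Cxcl12 (chr6:117168415-117168534, plus strand): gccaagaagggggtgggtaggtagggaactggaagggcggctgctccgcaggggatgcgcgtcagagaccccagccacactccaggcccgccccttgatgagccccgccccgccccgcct

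Both strands of the 250 bases before each RefSeq start were searched, with overlapping matches of 1 motif merged and positions counted back from that start. Cxcl1 and Cxcl2 each held 1 kappaB match, with the same 11 letters, at -71 to -61 in Cxcl1 and -97 to -87 in Cxcl2. Cxcl10 held 2 kappaB matches (-159 to -150 and -104 to -94), 1 AP-1 match (-74 to -68) and 1 interferon-stimulated response element (-213 to -203). Cxcl12, Ccl3 and Cx3cl1 held none of these 3 motifs in the window. The GC box CCNCNCCC, a motif of KLF and SP factors, had 3 matches in Cxcl1, 1 in Cxcl2, 1 in Cxcl10, 2 in Cxcl12, 3 in Cx3cl1 and 0 in Ccl3. The GC box match in Cxcl10 (-165 to -158) overlapped its upstream kappaB match. The letters TATAAA matched once, in Cx3cl1. Of 32851 RefSeq promoters searched over the same length, 7.25% held kappaB, 6.75% AP-1, 0.685% the interferon-stimulated element, 45.9% the GC box and 12.4% TATAAA. The Cx3cl1 window lies partly inside the GENCODE gene, so its stretch is not printed.

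AU-rich heptamers, TATTTAT in the DNA letters used here, were counted in the 3' UTR of the coding transcript with most counts, and the 30-base windows richest in them are shown for the genes with more than 1. Cxcl1 had 6 heptamers in a 3' UTR of 592 nt and Cxcl2 had 7 in 734 nt, with 4 of them inside each window.
Cxcl1 (chr5:90892606-90892635, plus strand, GRCm38): gtccTATTTATTTATgTATTTATTTATtcc
Cxcl2 (chr5:90905325-90905354, plus strand, GRCm38): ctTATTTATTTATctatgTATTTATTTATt
Cxcl5, Ccl3, Ccl4 and Cx3cl1 had 1 heptamer each, and Cxcl10, Cxcl12, Ccl2 and Ccl7 had 0. Among 14052 tested genes with a 3' UTR, 26.8% held at least 1 heptamer and 3.5% held 3 or more. A match is a description of the sequence and was not tied to the levels by any test.

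Library depth was 22.26 to 29.93 M (mega) estimated counts, so that 3 counts correspond to 0.1002 to 0.1348 CPM. CPM are counts per 1 M counts of a library, here with TMM factors, which adjust for composition. Cardiomyocyte markers summed to 102000 to 112000 CPM in I/R + ML264 hearts, 98900 to 114000 in I/R hearts and 94200 to 108000 in Sham hearts. The libraries also differed in ways that their labels do not give. Ddx3y, a Y-linked gene, had 0.106 to 0.484 CPM in I/R + ML264 libraries 1 and 2 and in I/R libraries 1 and 4. In the other libraries, all 4 Sham libraries included, it had 38.8 to 52 CPM. Low Ddx3y thus occurred only in injured groups. What goes with it cannot be fully told apart from injury in comparisons with Sham. The clock gene Arntl stood at 11.1 CPM in I/R library 1 and at 10.4 and 15.3 CPM in Sham libraries 2 and 3, against 1.05 to 3.26 CPM in the remaining 9 libraries. I/R + ML264 library 2 stood apart on the second dimension of a multidimensional scaling.

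In I/R hearts against Sham hearts, which asks what the injury changed, the neutrophil attractants Cxcl1 and Cxcl2, the monocyte attractant Ccl2 and the Ccr1 ligand Ccl3 rose. The rises spanned log2 fold changes of 2.50 (Ccl2) to 5.19 (Cxcl2), and for these 4 genes every I/R library lay above every Sham library. The homeostatic ligand Cxcl12 was the most abundant member per length and had a log2 fold change of -0.12. Of 10 members, 8 passed the filter on low counts, and Cxcl10 and Ccl4 did not. Of these 8, 4 were called higher and 0 lower by edgeR's quasi-likelihood test (adjusted p under 0.05 over all 15952 genes tested), where 7.75% of all genes were called, 4.58% higher and 3.17% lower. The median log2 fold change over the 8 members was 2.21, against 0.0 over all genes tested. Ccl3 and Ccl7 passed the filter through libraries of the injured groups, with at most 4 and 9 counts in a Sham library. With only I/R and Sham libraries in the fit, neither passed. The 8 tested members and their median thus include genes admitted where they were high, and the 4 called include Ccl3. Groups without overlap, with I/R higher, occurred in 8.54% of all genes tested, and with I/R lower in 7.25%. In bulk tissue, a change in the number of cells of a type and a change in RNA per cell cannot be told apart.

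**Figure D1:**
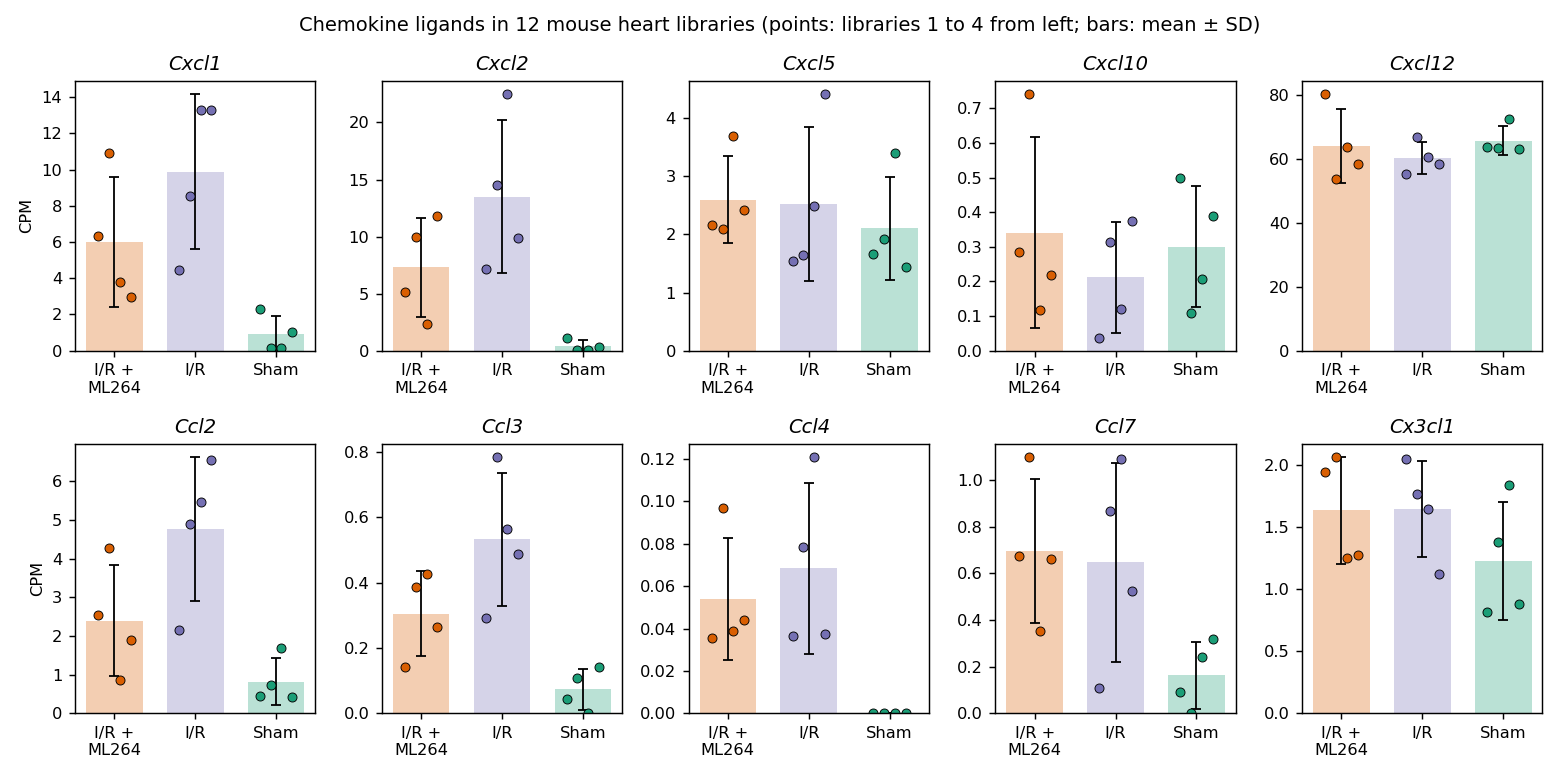
CPM of each chemokine ligand (y axes, linear, 1 scale per gene) in the 4 libraries of I/R + ML264, I/R and Sham hearts; points are libraries 1 to 4 from left, bars are means and error bars SD. The I/R points of Cxcl1, Cxcl2, Ccl2 and Ccl3 lie above all Sham points, as do those of Ccl4, at 1 to 3 counts against 0. The I/R points of Ccl7, Cxcl12, Cxcl5, Cxcl10 and Cx3cl1 overlap the Sham points.

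Cxcl2 (chromosome 5, 90903871 to 90905938, plus strand, GRCm38, as for all genes below) attracts neutrophils through Cxcr2. It stood at 5.14, 9.98, 2.34 and 11.8 CPM in I/R + ML264 libraries 1 to 4, at 7.14, 14.5, 22.5 and 9.88 CPM in I/R libraries 1 to 4, and at 1.13, 0.0362, 0.0695 and 0.352 CPM in Sham libraries 1 to 4. Both injured groups lay wholly above Sham and overlapped each other. The Sham values rested on 25, 1, 2 and 10 counts, against 195 to 560 counts per library in I/R hearts. The log2 fold change of I/R against Sham was 5.19 ± 0.85 (SE, 95% interval 3.28 to 7.09), with edgeR adjusted p = 0.00831. The call was kept when any single library was left out (edgeR adjusted p 0.00576 to 0.0321). It ended with edgeR adjusted p = 0.0559 (log2 fold change 5.65) when only libraries with Y-linked transcripts were used. Of its 31-base words, 7.6% also occur in transcripts of other genes, mostly of Cxcl3, a close paralog.

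Cxcl1 (chromosome 5, 90891241 to 90893115, plus strand) lies near Cxcl2 and encodes another Cxcr2 ligand. It stood at 6.31, 10.9, 3.78 and 2.95 CPM in I/R + ML264 libraries 1 to 4, at 4.43, 8.53, 13.3 and 13.3 CPM in I/R libraries, and at 2.31, 0.145, 0.139 and 1.06 CPM in Sham libraries. The Sham libraries were uneven, with 51 and 30 counts in libraries 1 and 4 and 4 counts each in libraries 2 and 3. Libraries 2 and 3 are the Sham libraries with high Arntl. The log2 fold change of I/R against Sham was 3.50 ± 0.80 (SE, 95% interval 1.71 to 5.29), with edgeR adjusted p = 0.0291. The call was lost on leaving out Sham library 2, 3 or 4 or I/R library 2, 3 or 4 (edgeR adjusted p 0.0525 to 0.0747). It was also lost with Arntl as a covariate (log2 fold change 2.91, edgeR adjusted p = 0.0754) and with Ddx3y presence as a covariate (3.30, adjusted p = 0.0817). With only I/R and Sham libraries in the fit, the call was lost as well (3.50, edgeR adjusted p = 0.0507).

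Cxcl5 (chromosome 5, 90759360 to 90761624, plus strand), the third Cxcr2 ligand, was not called. It stood at 2.16, 2.10, 3.70 and 2.43 CPM in I/R + ML264 libraries, at 1.54, 1.65, 2.49 and 4.42 CPM in I/R libraries, and at 1.67, 1.92, 3.40 and 1.44 CPM in Sham libraries. All 3 groups overlapped. Its log2 fold change was 0.25 ± 0.35 (SE) in I/R against Sham, with a 95% interval of -0.49 to 0.99 and edgeR adjusted p = 0.723. That interval lies below those of Cxcl1 and Cxcl2 in the same comparison, although a difference between genes was not tested.

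Ccl2 (chromosome 11, 82035571 to 82037453, plus strand), the main ligand of Ccr2, stood at 2.55, 4.29, 0.857 and 1.90 CPM in I/R + ML264 libraries 1 to 4, at 2.16, 4.91, 5.47 and 6.55 CPM in I/R libraries, and at 0.452, 0.724, 1.70 and 0.423 CPM in Sham libraries. The lowest I/R library, number 1, lay just above the highest Sham library, number 3, and both are libraries with high Arntl. Of the I/R + ML264 libraries, 3 of 4 lay above all Sham libraries. The log2 fold change of I/R against Sham was 2.50 ± 0.56 (SE, 95% interval 1.28 to 3.73), with edgeR adjusted p = 0.021. The call was lost on leaving out Sham library 1, 2 or 4 or I/R library 4 (edgeR adjusted p 0.0529 to 0.0622). It was lost with the Arntl covariate (2.66, adjusted p = 0.0889) and the Ddx3y covariate (2.30, adjusted p = 0.0683), and held within the libraries that carry Y-linked transcripts (2.63, adjusted p = 0.0153).

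Ccl7 (chromosome 11, 82045712 to 82047525, plus strand) lies near Ccl2 and also encodes a Ccr2 ligand. It had 19, 34, 9 and 15 counts in I/R + ML264 libraries 1 to 4, 3, 22, 27 and 14 counts in I/R libraries, and 2, 0, 7 and 9 counts in Sham libraries. I/R library 1, with 0.110 CPM, fell within the Sham range, while the 4 I/R + ML264 libraries, at 0.351 to 1.10 CPM, all lay above the Sham libraries at 0 to 0.317 CPM. Its log2 fold change was 1.92 ± 0.73 (SE, 95% interval 0.39 to 3.46) in I/R against Sham, which did not pass (edgeR adjusted p = 0.119).

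Ccl3 and Ccl4 lie near each other on chromosome 11 (83647844 to 83649355, minus strand, and 83662584 to 83664683, plus strand) and were rare. Ccl3 had 4, 12, 11 and 6 counts in I/R + ML264 libraries 1 to 4, 8, 20, 14 and 13 counts in I/R libraries, and 1, 3, 0 and 4 counts in Sham libraries. In CPM, that was 0.306 ± 0.129 in I/R + ML264 hearts, 0.532 ± 0.204 in I/R hearts and 0.0737 ± 0.0632 in Sham hearts (SD, n = 4), with both injured groups wholly above Sham. The log2 fold change of I/R against Sham was 2.76 ± 0.67 (SE, 95% interval 1.34 to 4.18), with edgeR adjusted p = 0.0203. With only I/R and Sham libraries in the fit, Ccl3 did not pass the filter and was not tested. The call was lost without Sham library 3 or I/R library 2 (edgeR adjusted p = 0.055 and 0.0585), with the Arntl covariate (2.17, adjusted p = 0.104) and within the libraries that carry Y-linked transcripts (3.10, adjusted p = 0.0511). Ccl4 had 1 to 3 counts in each injured library of both groups and 0 in every Sham library, and did not pass the filter. For its 7 counts in the I/R libraries, against 0 in the Sham libraries, the exact 95% interval of the depth-scaled ratio began at 1.37 and had no upper end. For its 6 counts in the I/R + ML264 libraries, against 0 in the Sham libraries, that interval began at 1.18. These limits cover counting error only.

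Cxcl10 (chromosome 5, 92346638 to 92348889, minus strand), induced by interferons, was near the limit of detection and failed the filter. It had 8, 23, 3 and 5 counts in I/R + ML264 libraries 1 to 4, 1, 8, 3 and 10 counts in I/R libraries, and 11, 3, 6 and 11 counts in Sham libraries. The groups overlapped in every comparison. Summed counts, scaled by depth, gave a ratio of 0.673 in I/R against Sham (95% counting interval 0.371 to 1.2). The ratio was 1.87 (1.08 to 3.32) with the inhibitor against I/R alone, and 1.26 (0.766 to 2.09) with the inhibitor against Sham. Of the 39 counts in I/R + ML264 hearts, 23 came from library 2. In a fit without the filter, its edgeR adjusted p was 0.827 in I/R against Sham, and with the inhibitor 0.725 against I/R alone and 0.947 against Sham. Its interferon-stimulated element and kappaB matches, printed above, thus stand beside 1 to 23 counts per library.

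Cxcl12 (chromosome 6, 117168535 to 117181367, plus strand), a ligand that retains and guides progenitor and immune cells, had the steadiest level. It stood at 80.3, 53.7, 63.8 and 58.4 CPM in I/R + ML264 libraries, at 55.2, 66.8, 60.7 and 58.3 CPM in I/R libraries, and at 63.7, 63.3, 72.4 and 63.1 CPM in Sham libraries. Its log2 fold change in I/R against Sham was -0.12 ± 0.11 (SE, 95% interval -0.35 to 0.10), with edgeR adjusted p = 0.541. Cx3cl1 (chromosome 8, 94772009 to 94782427, plus strand), the membrane-anchored ligand, stood at 1.25 to 2.07 CPM in I/R + ML264 libraries, 1.12 to 2.05 in I/R libraries and 0.814 to 1.84 in Sham libraries. All 3 groups overlapped, and its log2 fold change in I/R against Sham was 0.41 ± 0.31 (SE, 95% interval -0.23 to 1.06), with edgeR adjusted p = 0.457.

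**Figure D2:**
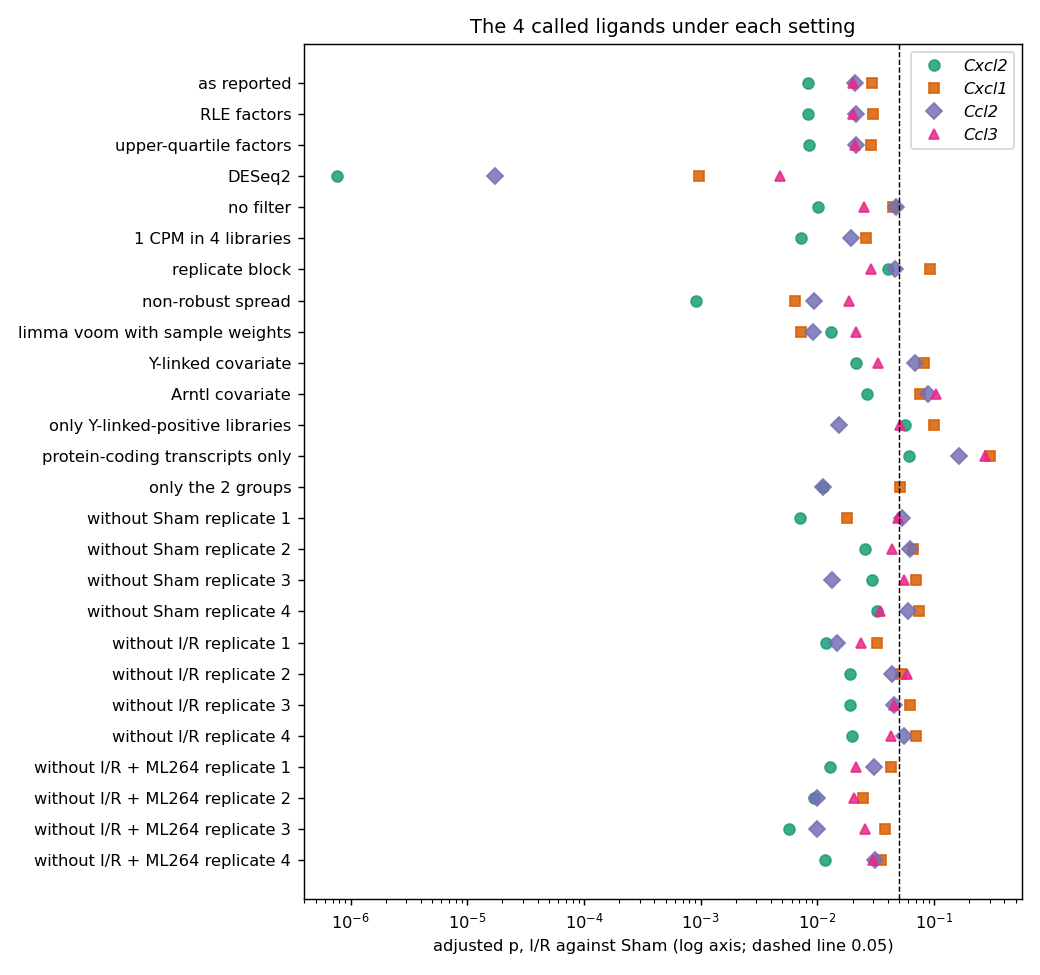
Adjusted p of the 4 called ligands in I/R against Sham (x axis, log scale) under the reported fit and each alternative setting (rows); the dashed line is the threshold of 0.05. Cxcl2 lies above 0.05 in 2 settings, Ccl3 in 5, Ccl2 in 7 and Cxcl1 in 12.

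The plot of adjusted p by setting shows how the calls depend on single libraries and on the covariates. The direction of Cxcl1, Cxcl2 and Ccl2 was the same in all 25 alternatives, and that of Ccl3 in the 23 in which it could be tested. Their log2 fold changes over the alternatives ranged from 2.91 to 4.45 for Cxcl1, 4.76 to 6.61 for Cxcl2, 2.28 to 3.14 for Ccl2 and 2.17 to 3.26 for Ccl3. I/R library 1, the only I/R library with high Arntl, which also had little of the Y-linked Ddx3y (0.33 CPM), was the lowest I/R library for 9 of the 10 members, called or not, and the highest for Cx3cl1. For Ccl4 and Cxcl5 that place rested on scaling, since another I/R library had the same count (1 and 42). How often this library was the lowest over all genes was not counted, so the 9 of 10 has no background. With Arntl as a covariate 1 member was called (Cxcl2), and with Ddx3y presence as a covariate 2 were (Cxcl2 and Ccl3).

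Set against I/R hearts, which asks what the KLF5 inhibitor changed after injury, I/R + ML264 hearts showed no chemokine ligand called in either direction. Cxcl1, Cxcl2, Ccl2 and Ccl3 had lower means with the inhibitor, but for each of them 2 of the 4 I/R + ML264 libraries lay within the I/R range and 2 below it. Of the 8 tested members, 0 passed edgeR's adjusted threshold and 0 had an unadjusted p under 0.05, where 0.0502% of all genes were called (8 genes), 0.0125% higher and 0.0376% lower. No member had groups without overlap, which occurred in 2.54% of all genes tested with I/R + ML264 higher and in 3.08% with it lower. DESeq2 also called 0 members. The median log2 fold change over the 8 members was -0.36, against 0.0 over all genes tested.

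The mean level of Cxcl1 was 6.0 ± 3.59 CPM in I/R + ML264 hearts and 9.89 ± 4.28 CPM in I/R hearts (SD, n = 4), a log2 fold change of -0.71 with a 95% interval of -2.21 to 0.79. Cxcl2 averaged 7.31 ± 4.34 CPM in I/R + ML264 hearts and 13.5 ± 6.73 CPM in I/R hearts (SD, n = 4), a log2 fold change of -0.89 (-2.29 to 0.51). Ccl2 averaged 2.4 ± 1.44 CPM in I/R + ML264 hearts and 4.77 ± 1.87 CPM in I/R hearts (SD, n = 4), a log2 fold change of -0.98 (-2.09 to 0.14). Each of these intervals includes 0. Ccl3 had a log2 fold change of -0.79 (-1.97 to 0.40) and Ccl7 of 0.12 (-1.22 to 1.46). The edgeR adjusted p of these 5 genes was 0.764 for Cxcl1, 0.67 for Cxcl2, 0.538 for Ccl2, 0.66 for Ccl3 and 0.965 for Ccl7. The narrowest interval was that of Cxcl12, with a log2 fold change of 0.09 (-0.14 to 0.31), followed by Cx3cl1 at 0.00 (-0.64 to 0.63) and Cxcl5 at 0.04 (-0.70 to 0.77).

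**Figure D3:**
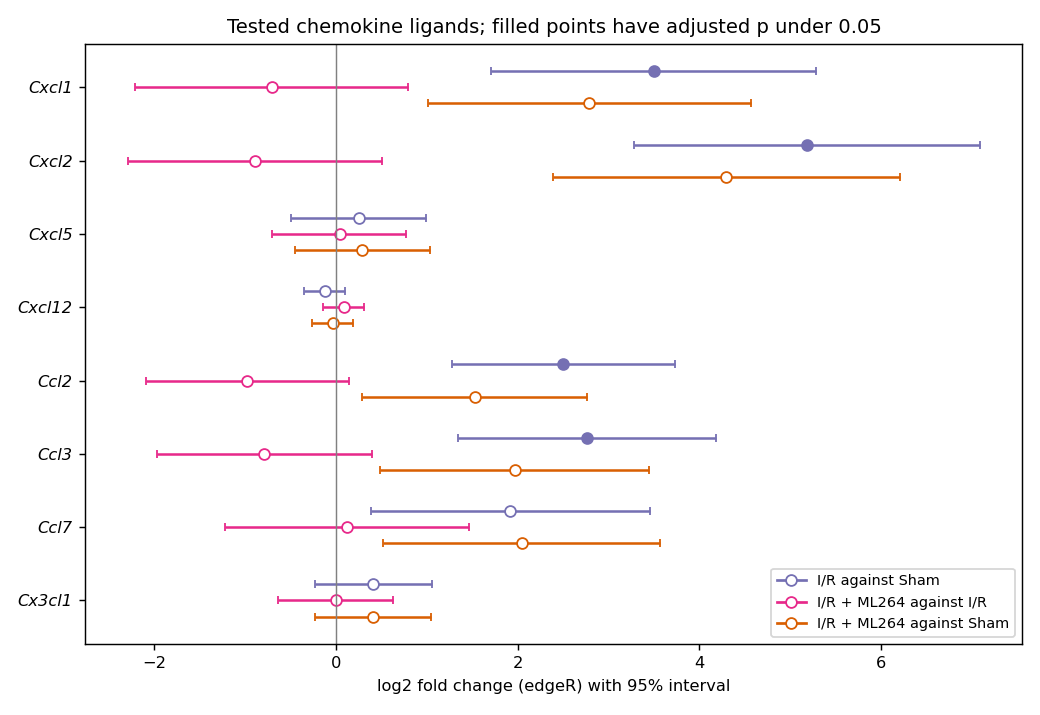
Log2 fold change with its 95% interval (x axis, edgeR) of the 8 tested chemokine ligands in I/R against Sham, I/R + ML264 against I/R and I/R + ML264 against Sham; filled points have adjusted p under 0.05. The filled points are Cxcl1, Cxcl2, Ccl2 and Ccl3 in I/R against Sham, and every interval of I/R + ML264 against I/R crosses 0.

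Between I/R + ML264 hearts and Sham hearts, a comparison of treated injury with no injury, 7 of the 8 tested members had positive log2 fold changes and none was called. Cxcl2 had 4.30 ± 0.85 (SE, edgeR adjusted p = 0.0912), Cxcl1 2.79 ± 0.79 (adjusted p = 0.178), Ccl7 2.05 ± 0.72 (adjusted p = 0.227), Ccl3 1.97 ± 0.70 (adjusted p = 0.228) and Ccl2 1.53 ± 0.56 (adjusted p = 0.272). The first 4 of these had every I/R + ML264 library above every Sham library, as did 3.99% of all genes tested, with 3.37% wholly below. By edgeR, 0 of 8 tested members were called, with 0.288% of all genes called (0.257% higher and 0.0313% lower). An unadjusted edgeR p under 0.05 was reached by 5 of 8, but the share of all genes that reached it was not counted. DESeq2 called Cxcl1 and Cxcl2 higher (adjusted p = 0.0452 and 0.000403), where it called 365 genes in all, 2.27% of those it tested (1.75% higher), against 46 by edgeR. With I/R + ML264 library 3 left out, edgeR called Cxcl2 (4.60, adjusted p = 0.0485) and 94 genes in all. Cxcl5 (0.29 ± 0.35), Cxcl12 (-0.03 ± 0.11) and Cx3cl1 (0.41 ± 0.30) had edgeR adjusted p of 0.777, 0.924 and 0.613. This comparison shares its Sham libraries with I/R against Sham and its I/R + ML264 libraries with the comparison to I/R, so the 3 sets of values are not independent.

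Levels of different genes were compared only per kilobase of annotated transcript, scaled to 1 M per library. On that scale, Cxcl12 had the highest mean in every group, with 19.9 ± 2.34 in I/R + ML264 hearts, 17.9 ± 1.33 in I/R hearts and 22.6 ± 5.45 in Sham hearts (SD, n = 4). In I/R hearts Cxcl2 came next, at 15.0 ± 13.2, against 9.75 ± 7.99 in I/R + ML264 hearts and 0.433 ± 0.515 in Sham hearts, and its spread (mean ± SD) overlapped that of Cxcl12 in both injured groups. The I/R mean rests on library 3, where 305 of 560 Cxcl2 counts were given to a retained-intron transcript of 397 nt. Without that library it was 8.38 ± 0.56, below the spread of Cxcl12, and without library 2 the I/R + ML264 mean was 6.05 ± 3.62 (SD, n = 3 each). Without Sham library 1 the Sham means were 0.201 ± 0.275 for Cxcl2 and 0.403 ± 0.545 for Cxcl1. Cxcl1 had 4.78 ± 3.08 in I/R + ML264 hearts, 7.2 ± 2.13 in I/R hearts and 0.613 ± 0.611 in Sham hearts. Ccl2 had 2.75 ± 1.86 in I/R + ML264 hearts, 4.91 ± 1.29 in I/R hearts and 0.886 ± 0.624 in Sham hearts. Cx3cl1 had 3.2 ± 1.22 in I/R + ML264 hearts, 2.1 ± 0.936 in I/R hearts and 2.65 ± 1.15 in Sham hearts. Its place on this scale depends on how counts were divided among its transcripts, since none of the Sham counts were given to its coding transcript of 3315 nt and all were given to shorter ones. In CPM, which does not use length, the I/R mean of Cx3cl1 was above the Sham mean (1.65 against 1.23), the opposite order to that per length. Cxcl5 had 1.21 to 1.53 in the 3 group means, and Ccl7, Ccl3, Cxcl10 and Ccl4 were below 1 in each. In I/R hearts the spreads of Cxcl1 and Ccl2 overlapped, while those of Ccl2 and Cx3cl1 did not. In Sham hearts the spread of Cxcl12 lay above that of every other member, and those of Cx3cl1 and Cxcl5 overlapped.

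Of the 10 members, 7 have more than 1 annotated transcript, and the way the estimated counts were divided among them was unstable. For Cxcl1, a retained-intron transcript, which holds unspliced sequence and codes no protein, took 54.9% of the counts overall and 4.2% to 100% in single libraries, both ends being Sham libraries with 30 and 4 counts. The retained-intron share was 48.7% overall for Cxcl2 (0 to 100%), 43.0% for Ccl2 (9.9% to 83.2%), 63.5% for Cxcl5 (0 to 100%) and 22.1% for Cxcl12 (1.3% to 45.3%). Transcripts not annotated as protein-coding took 46.7% of the counts of Cx3cl1 and 35.8% of those of Cxcl10. Of the annotated coding transcripts of Cx3cl1, that of 3315 nt took 24.7% of the counts. Those of 377 and 470 nt took 16.5% and 12.1%. Ccl3, Ccl4 and Ccl7 have 1 transcript each, so this does not touch them. For Cxcl12 the share was 8.9 ± 7.9% in I/R + ML264 hearts, 16.4 ± 19.0% in I/R hearts and 37.8 ± 8.8% in Sham hearts (SD, n = 4). The 4 I/R + ML264 libraries, at 1.3% to 19.4%, lay below the 4 Sham libraries, at 26.1% to 45.3%. A 2-sided exact permutation test gave p = 0.0286 for I/R + ML264 against Sham, the smallest that 4 against 4 allows, and p = 0.114 for I/R against Sham. Adjusted over 21 such tests on these members, both were 0.6, and this contrast was picked out after the values were seen. When counts of protein-coding transcripts alone were used, a setting chosen after seeing the data, 5 genes in all were called in I/R against Sham and no member was. The log2 fold changes were then 3.88 for Cxcl1 (edgeR adjusted p = 0.3), 6.61 for Cxcl2 (0.0605), 2.87 for Ccl2 (0.162) and 2.72 for Ccl3 (0.272).

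**Figure D4:**
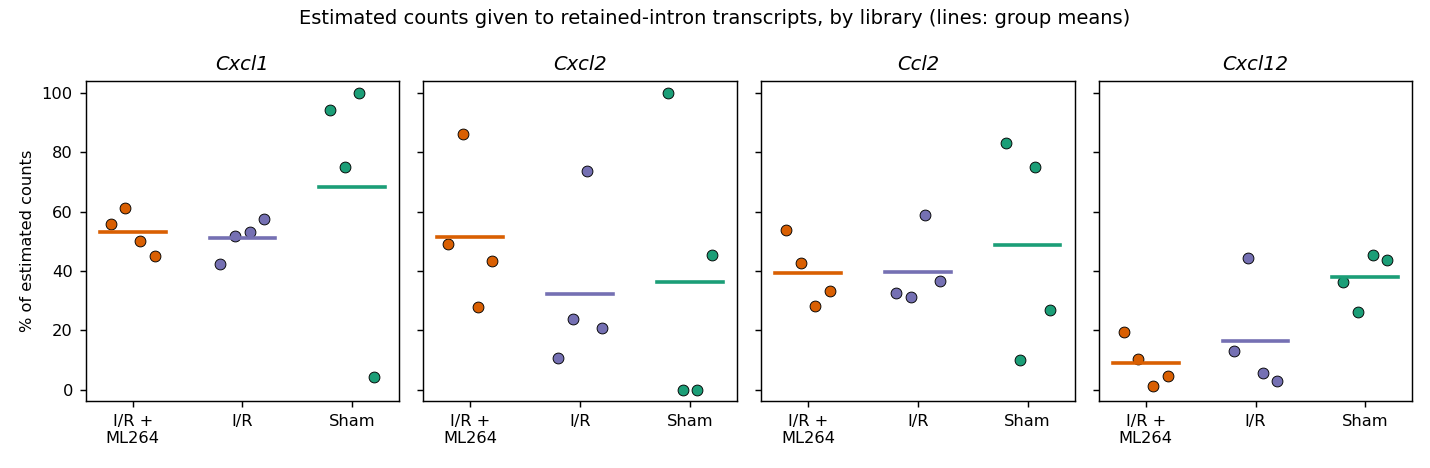
Share of a gene's estimated counts given to retained-intron transcripts (y axis, %) in each library of I/R + ML264, I/R and Sham hearts, for Cxcl1, Cxcl2, Ccl2 and Cxcl12; lines are group means. The Sham libraries of Cxcl1 run from 4.2% to 100%, and those of Cxcl12 lie above all I/R + ML264 libraries.

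The genes most like each member over the 12 libraries were found by the smallest mean absolute difference of mean-centred log2 CPM, as a description with no test. For Cxcl1 they were the stress-response transcription factor Atf3 (0.51) and the orphan nuclear receptor Nr4a1 (0.52), and for Cxcl2 the AP-1 subunit Fosb (0.66) and Nr4a1 (0.69). For Ccl2 they were Cd83 and Rgs16 (0.41 each), for Ccl7 Samsn1 (0.40) and Robo3 (0.41), and for Ccl3 Tekt1 (0.27) and Tmem184a (0.33). Cxcl12 was nearest to the sarcomeric actin gene Actc1 and the elastin gene Eln (0.07 each), Cxcl5 to Osbpl10 (0.18) and Ctla4 (0.20), and Cx3cl1 to Olfr143 (0.16) and Maob (0.17). For scale, the mean absolute deviation of the member itself was 1.58 for Cxcl1, 2.2 for Cxcl2, 1.06 for Ccl2, 0.85 for Ccl3 and 0.11 for Cxcl12.

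In I/R against Sham, 4.58% of all genes tested were called higher and 3.17% lower. These shares are the background for the lists below, which were not tested as sets. Among 30 other chemokine ligands, 18 were tested, and in I/R against Sham 0 were called higher and 1 lower, with a median log2 fold change of 0.45. The gene that fell was Ccl25, a Ccr9 ligand (-1.01 ± 0.21 (SE), edgeR adjusted p = 0.00835). Of the close relatives of the called members, Cxcl3 had a log2 fold change of 0.71 ± 0.31 (adjusted p = 0.173). Of 12 tested chemokine receptors, 1 rose and 1 fell. Ccrl2, which binds chemerin and does not signal as a classical chemokine receptor, rose by 1.44 ± 0.30 (SE, edgeR adjusted p = 0.0137), and Cx3cr1, the receptor of Cx3cl1, fell by 1.19 on the log2 scale (adjusted p = 0.0108). Cx3cr1 had 188 counts in I/R libraries and 448 in Sham libraries, while its ligand Cx3cl1 overlapped between the groups. The receptors Cxcr2, Ccr2 and Ccr1, which bind called ligands, did not pass. Their log2 fold changes were 0.50 ± 0.32 for Cxcr2, -0.30 ± 0.20 for Ccr2 and -0.17 ± 0.46 for Ccr1 (SE), with edgeR adjusted p of 0.392, 0.403 and 0.866 for these 3 genes. Of 3 tested atypical receptors, which take up chemokines without G protein signalling, Ackr4 fell by 1.08 on the log2 scale (edgeR adjusted p = 0.0252). Ackr3, the scavenger of Cxcl12, had 0.55 ± 0.16 (adjusted p = 0.0596).

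Upstream of the ligands, 2 of 11 tested inducing cytokines and receptors rose in I/R against Sham and 0 fell, with 4.58% and 3.17% of all genes. Il6, the gene of interleukin 6, had 689 counts in I/R libraries and 2 in Sham libraries, which scaled by depth is a ratio of 327 (90.1 to 2700 as a 95% interval on counting, edgeR adjusted p = 0.00546). Tlr2, a sensor of microbial and tissue damage products, rose by 1.34 ± 0.31 (SE, edgeR adjusted p = 0.014). Il1b, the gene of interleukin 1 beta, had 2.97 ± 0.86 (adjusted p = 0.0716). Of 8 tested factors that govern the decay of chemokine mRNA, 2 rose, and both promote decay. Zfp36, the gene of tristetraprolin, which binds AU-rich heptamers like those printed above, had 14562 counts in I/R libraries and 2355 in Sham libraries (log2 fold change 2.58 ± 0.65 (SE), edgeR adjusted p = 0.0443). Zc3h12a, the gene of the endonuclease regnase-1, rose by 1.62 ± 0.29 (adjusted p = 0.00384). Of 7 tested enzymes that trim chemokines, Mmp9, a gelatinase stored in neutrophils, rose by 3.01 ± 0.78 (adjusted p = 0.0263). Mmp9 and Il6 had at most 6 and 1 counts in a Sham library, and passed the filter through libraries of the injured groups. Of the 59 tested genes of these 6 lists, edgeR called 0 when I/R + ML264 was set against I/R (9 with an unadjusted p under 0.05, and 0 called by DESeq2). In I/R + ML264 against Sham, edgeR also called 0 of the 59 (13 with an unadjusted p under 0.05), while DESeq2 called 3, Il1b, Il6 and Zfp36. DESeq2 called 2.27% of all genes it tested there. How many of all genes had an unadjusted p under 0.05 was not counted, so the 9 and the 13 have no background.

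**Figure D5:**
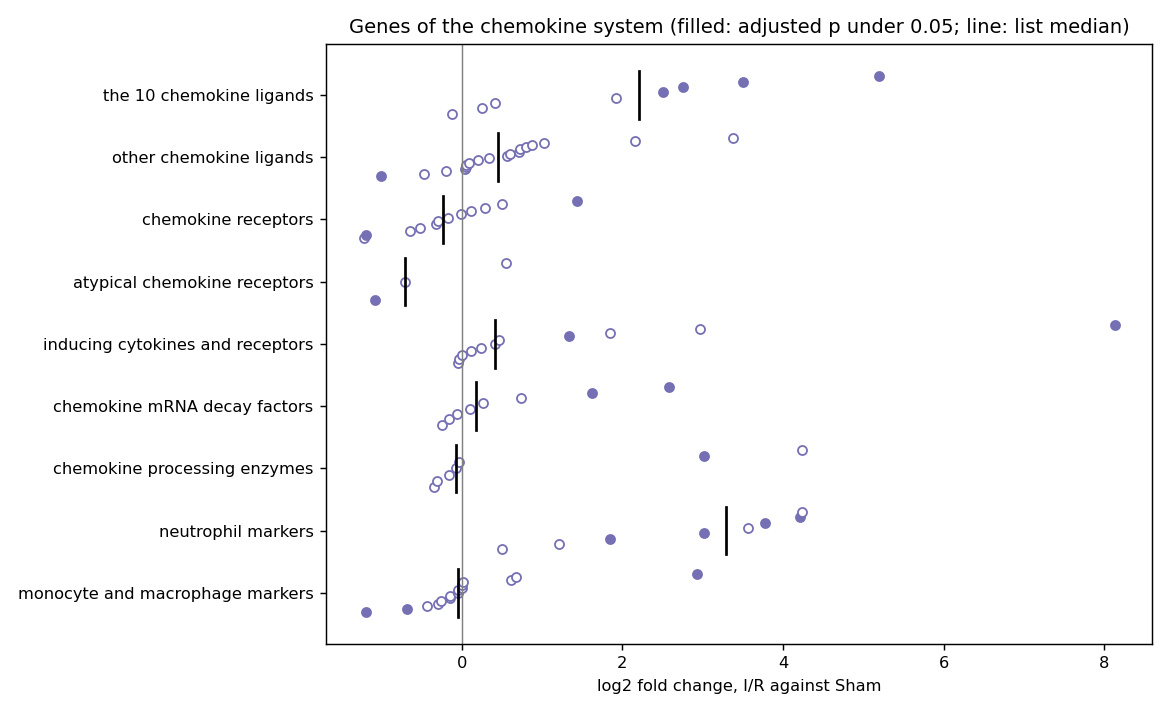
Log2 fold change of I/R against Sham (x axis) for each tested gene of the chemokine system and of neutrophil and monocyte or macrophage marker lists (rows); filled points have adjusted p under 0.05 and the vertical line is the list median. The 8 tested members and the neutrophil markers have medians of 2.21 and 3.29, and the other lists lie between -0.71 and 0.45. The members and the neutrophil markers include genes that passed the filter through libraries of the injured groups.

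Some markers of neutrophils, cells that Cxcl1 and Cxcl2 attract, rose in I/R against Sham, while markers of monocytes and macrophages moved in both directions. Of 14 neutrophil markers, 8 were tested and 4 rose in I/R against Sham (Mmp9, Clec4d, Clec4e and Trem1), with a summed level of 6.03 to 25.1 CPM in I/R + ML264 libraries, 10.5 to 25.9 in I/R libraries and 5.39 to 7.92 in Sham libraries. Every I/R library was above every Sham library in that sum. Mmp8, Mmp9, Retnlg, Clec4d and Trem1 had at most 3, 6, 2, 5 and 2 counts in a Sham library. They passed the filter through libraries of the injured groups, so the 8 tested and the 4 that rose include genes admitted where they were high. The defining markers stayed low: Ly6g had 5, 2 and 0 counts in the I/R + ML264, I/R and Sham groups, and S100a8 had 26, 29 and 0. Of 15 monocyte and macrophage markers, all tested, Cd14 rose and Adgre1 and Cx3cr1 fell, and the summed level overlapped, at 123 to 172 CPM in I/R + ML264 libraries, 144 to 162 in I/R libraries and 122 to 211 in Sham libraries. Platelet markers summed to 7.28 to 130 CPM in I/R + ML264 libraries, 10.4 to 183 in I/R libraries and 6.74 to 24.4 in Sham libraries, with library 4 highest in both injured groups. Endothelial markers summed to 664 to 779 CPM in I/R + ML264 libraries, 689 to 720 in I/R libraries and 702 to 746 in Sham libraries. Ppbp, a platelet chemokine, had 2061 of 2206 counts of the I/R + ML264 group and 2924 of 3447 counts of the I/R group in library 4. Ppbp, Pf4, Mmp8, Mmp9, Cxcr2, Ccr2 and Cx3cr1 stand in both a marker list and a chemokine system list. The part of these cells in the chemokine values was not tested.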

How the data were processed

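Frozen heart was extracted with TRIzol and sequencing libraries came from the Nextera XT kit, without strand marking, per the labels' protocols. The authors deposited estimated counts for each transcript and library, unscaled. The submitters' processing notes name kallisto, FastQC and GRCm38 (mm10); versions were not given in the sources used here. Of the deposited transcript values, 45.6% were not whole numbers. Because kallisto splits reads between transcripts with common sequence, the split within a gene is less certain than the sum.

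Values of 104952 transcripts were summed per gene symbol and rounded. No pair of libraries was identical, and replicates differed beyond counting noise (chi-square per gene 7.76 to 75.82). Genes were filtered with filterByExpr (minimum 10 counts) and fitted in 1 model over the 12 libraries by edgeR's quasi-likelihood F-test with a robust spread and TMM factors (edgeR 4.0.16, R 4.3.3, biological coefficient of variation 0.205). The SE was the absolute log2 fold change over the square root of F. P-values were adjusted by Benjamini-Hochberg over all 15952 genes tested. Counting intervals are exact binomial (Clopper-Pearson) on summed counts scaled by depth, and cover counting error only. Biotypes, lengths and coordinates came from GENCODE M21, which held 98.6% of the transcripts, and promoters from RefSeq. The fit was tested on simulated counts drawn with the same spread for every gene. That test does not cover members whose libraries varied more than this.

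The members, gene lists and alternatives were chosen with earlier results of these data known. All 10 members are named. Other genes are named where a list member was called, where they are receptors or inducers of called members, as the closest paralog, or as the 2 most alike genes. Replicate numbers did not pair the libraries (correlations of deviations -0.11 to 0.1). Alternatives used DESeq2 1.42.0, limma 3.58.1 (voom), other scalings and filters, a replicate block, Arntl or Ddx3y covariates, libraries with Ddx3y above 5 CPM, only the 2 groups compared, and each library left out. Their effect is given for the members; for the other genes named, DESeq2 calls were the only alternative counted.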

Additional observations from a re-analysis of the deposited data

Results flagged for a closer look

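Of 29 groups of 4 libraries checked for a library far from the other 3, 2 were picked out, and chance picks about 1 in 20. Cxcl12 stood at 72.4 CPM in Sham library 3, while the other Sham libraries stood at 63.1 to 63.7 CPM, a gap of 0.936 of the group's range. Ccl4 stood at 0.0968 CPM in I/R + ML264 library 2, while the other I/R + ML264 libraries stood at 0.0355 to 0.0441 CPM, a gap of 0.859 of the range; these values rest on 3 counts in library 2 and 1 count in each of the others.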

How the results depend on the processing

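The number of tested members called higher in I/R against Sham, 4 as reported, was 4 with RLE factors, upper-quartile factors, DESeq2, no filter, a non-robust spread and voom, and 3 with a filter of 1 CPM in 4 libraries, under which Ccl3 was not tested. It was 2 with the Ddx3y covariate, 1 with the Arntl covariate and 1 with only libraries that carry Y-linked transcripts. It was 2 with only the 2 groups compared. In that setting Ccl3 and Ccl7, of which Ccl7 was not called as reported, did not pass the filter. Cxcl1 also lost its call there (log2 fold change 3.50, edgeR adjusted p = 0.0507). The number called was 0 with protein-coding transcripts only, a setting chosen after seeing the data, which called 5 genes in all against 1236. With each library left out in turn it was 2 to 4, and genes called in all fell to 659 without Sham library 3. With the replicate number as a block it was 3, with Cxcl1 lost (log2 fold change 3.61, edgeR adjusted p = 0.092) and 1009 genes called in all; the libraries share only a number, so this block is no pairing. No member was called lower in any setting. In I/R + ML264 against I/R, 0 members were called in every setting, among them DESeq2 with 149 genes in all. In I/R + ML264 against Sham, 0 as reported, it was 2 with DESeq2, 1 with a non-robust spread and 0 to 1 with each library left out. Where the causes of these changes are not fewer libraries or fewer genes tested, they were not tested.

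Log2 fold changes that turned direction were all of members not called. In I/R against Sham, Cxcl5 had -0.03 with only Y-linked-positive libraries and -0.16 to 0.59 with each library left out (lowest without I/R library 4), and Cxcl12 had 0.24 with protein-coding transcripts only. In I/R + ML264 against I/R, Cxcl5 had -0.18 to 0.45 with each library left out, below 0 without I/R library 1 or 2 or I/R + ML264 library 3 (-0.14, -0.12 and -0.18). Cxcl12 had -0.06 with only Y-linked-positive libraries and -0.04 to 0.17 with each library left out, below 0 without I/R + ML264 library 1. Ccl7 had -0.95 with only Y-linked-positive libraries and -0.23 to 0.49 with each library left out, below 0 without I/R library 1 (-0.23) or I/R + ML264 library 2 (-0.19). Cx3cl1, at 0.00, turned to 0.01 with upper-quartile factors, 0.04 with the Arntl covariate, 0.41 with protein-coding transcripts only, 0 with only the 2 groups and -0.15 to 0.12 with each library left out, above 0 without I/R library 1 or 2 or I/R + ML264 library 3 or 4. In I/R + ML264 against Sham, Cxcl12 had 0.5 with protein-coding transcripts only and 0.01 to 0.04 without Sham library 3 or I/R + ML264 library 2 or 4. Depth limits Ccl4, Cxcl10 and Ccl3 most, with at most 3, 23 and 20 counts in a library.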
